A study of Mus musculus with 14 samples.

Results

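Sebaceous gland cells were taken from 2 single-cell RNA libraries of mouse back skin epithelium as barcodes with at least 1 UMI (a unique molecular identifier, 1 counted transcript) in 3 or more of 6 genes: Cidea, Ces1d, Akr1c18, Cers4, Bex1 and Elovl6. This rule found 67 of 8396 kept cells, a kept cell having at least 1000 UMIs and 500 genes and no more than 10% of its UMIs from mitochondrial genes. Of the 67, 30 came from the young library of 4045 cells and 37 from the aged library of 4351 cells, where the labels' protocol states a capture of 4000 cells per sample. The levels of the 6 rule genes in these cells therefore follow from the choice and are given as a description.

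The study compared back skin of female mice at 2 months (young) and 24 months (aged), with no mutation or transgene named in the labels, which give the strain under 2 spellings (C57B6 and C57B8). Skin was digested with trypsin and sorted by flow cytometry. The 10x cells were lineage negative and integrin α6 positive, with 1 library per age. Bulk RNA was made from integrin α6 high cells as CD34+ Sca1- hair follicle stem cells (HFSC) and CD34- Sca1+ epidermal stem cells (EpdSC), with 2 libraries per age and cell type. Nothing in the labels says how many animals gave each library, so spreads between bulk libraries may be technical. With 1 library per age, an age difference in the 10x data cannot be told apart from a difference between libraries, and no test was made there.

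The sebaceous gland is an appendage of the hair follicle. Its cells start at a basal rim, divide, fill with neutral lipid as they move inward, and finally burst to release sebum, a mixture of triglycerides, wax esters, squalene and cholesterol esters (holocrine secretion). PPARγ drives this lipid programme, and steroid hormones are known to act on the gland.

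The sebaceous cells made up 0.742% of the young cells (exact 95% interval 0.501 to 1.06, n = 30 of 4045) and 0.850% of the aged cells (0.599 to 1.17, n = 37 of 4351). The 2 intervals overlapped. Intervals here cover counting error only. The libraries differed in depth, with a median of 3918 UMIs per kept cell in the young and 2302 in the aged library. Sebaceous cells were deeper than the rest, with medians of 7120 and 3430 UMIs. With every cell thinned to 1000 UMIs, 14 young cells (0.346%) and 18 aged cells (0.414%) met the rule, all of them among the 67. Their median mitochondrial share was 5.78% in the young and 6.13% in the aged cells, against 3.93% and 4.72% in the other cells. The libraries shared 33 kept barcodes, 1 of them a young sebaceous cell and none an aged one. Shares from a sort on integrin α6 need not follow those in the skin.

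Just inside the rule, with 3 rule genes, were 15 young and 22 aged cells, and just outside, with 2, were 50 and 46. In the young library 6 cells had 4 and 9 had 5 of the genes. In the aged library 6 had 4, 3 had 5 and 6 had all of them. The values on both sides of this edge can be read from Mgst1, a microsomal glutathione S-transferase known as a sebaceous marker and not used by the rule. Its level is given as CPM, its UMIs per 1000000 summed UMIs of the cells. In the young library it was 49.6 CPM in cells with none of the rule genes, 127 with 1, 644 with 2, 1794 with 3, 3600 with 4 and 6818 with 5. In the aged library the same series ran 101, 325, 1607, 4476, 9278, 6375 and, with all 6, 10455 CPM. Cells with 2 rule genes thus stood between the sebaceous cells and the rest in both libraries. The median sebaceous cell held 17.5 Mgst1 UMIs in the young (range 0 to 83) and 17 in the aged library (range 1 to 119). Mgst1 was found in 29 of 30 young and 37 of 37 aged sebaceous cells, against 17.1% and 22.4% of the other cells.

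**Figure D1:**
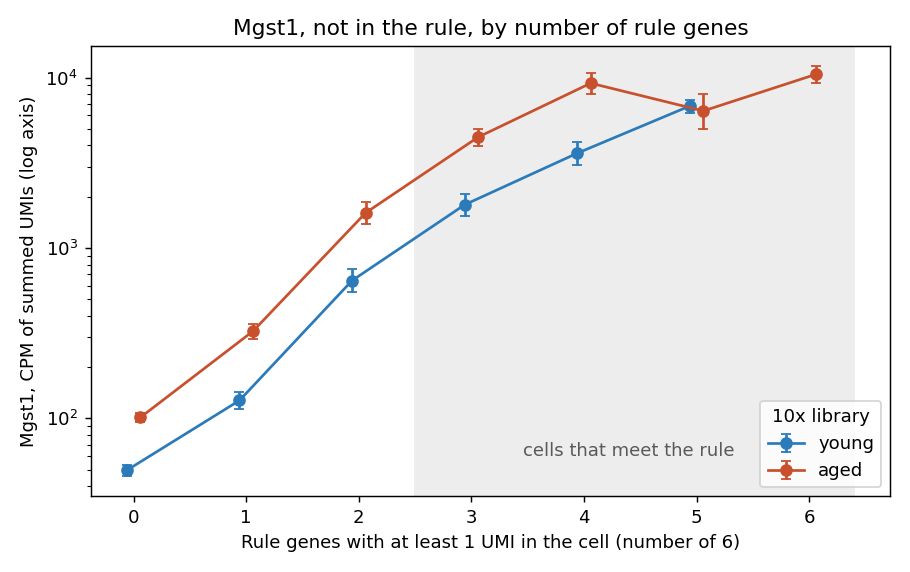
Mgst1 CPM of summed UMIs (y axis, log scale) for cells grouped by how many of the 6 rule genes they held (x axis), by 10x library, with exact 95% Poisson intervals as bars. Mgst1 was not in the rule, and its level ran from 49.6 CPM with no rule gene to 6818 CPM with 5 in the young library and from 101 to 10455 CPM with 6 in the aged library, with a dip to 6375 CPM at 5.

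The label was checked against further markers. A list of 22 sebaceous genes outside the rule took 13243 CPM of the young and 18667 CPM of the aged sebaceous cells, against 1634 and 2293 CPM in the other cells. A young sebaceous cell held a UMI of 10 of the 22 at the median (range 4 to 15) and an aged one of 8 (range 2 to 16), against 2 in other cells of either library. Of the 22, 5 had no UMI in any sebaceous cell: Scd3, Fads2, Dgat2l6, Mc5r and Pnpla5. No UMI was seen of any of the 6 fibroblast, 6 melanocyte or 5 measured T cell markers. The adipocyte list, which matters because adipocytes share much of the lipid machinery, had 6 of 7 genes at 0, Adipoq and Cfd among them, and 1 UMI of Plin1 in 1 young cell. Myeloid markers gave 2 UMIs in the young and 1 in the aged cells, and endothelial markers 3 and 2, all of Pecam1.

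Genes of the neighbouring keratinocytes were present, those of the epidermis at lower levels than in other cells. The interfollicular basal list (Krt5, Krt14 and partners) stood at 6040 CPM in the young and 5757 CPM in the aged sebaceous cells, against 18145 and 24839 CPM in other cells. The suprabasal list stood at 489 and 473 CPM against 6713 and 7836 CPM. The follicle junction list (Gata6, Cldn8, Plet1 and Lrig1) stood higher than in other cells, at 176 against 143 CPM in the young and 173 against 95.8 CPM in the aged library. The upper hair follicle list stood at 8184 against 5375 CPM in the young and 773 against 1950 CPM in the aged library. Of its 1859 young UMIs 1600 lay in 1 cell, without which the young level was 1259 CPM, and that of the junction list 126 CPM. Itga6, which encodes the integrin α6 of the sort gate, was at 79.3 CPM in the young and 128 CPM in the aged sebaceous cells, below the 211 and 255 CPM of the other cells. Proliferation markers were rare: 4 young and 2 aged sebaceous cells held 3 or more of 8, and 19 and 35 held none.

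The rule genes themselves differed in how they filled the rule. Akr1c18 (chromosome 13, 4132615 to 4150646, GRCm38.p6), a hydroxysteroid dehydrogenase that inactivates progesterone, was the most counted, at 7040 CPM in the young and 3933 CPM in the aged sebaceous cells. Its median was 54 UMIs per young cell (range 0 to 116) and 14 per aged cell (range 1 to 43). Cers4, a ceramide synthase, stood at 911 and 1238 CPM. Elovl6, which lengthens palmitate, stood at 1057 and 450 CPM and was found in 22 of 30 young but 11 of 37 aged cells. Cidea, a lipid droplet protein, stood at 352 and 345 CPM, and Ces1d, a lipid-hydrolysing carboxylesterase, at 194 and 233 CPM. In other cells Cidea and Ces1d were each at or under 1.37 CPM, while Akr1c18 was at 71.6 and 131 CPM, below its 178 and 195 CPM in near-empty barcodes of 10 to 100 UMIs. The 6 label markers together (the rule genes with Mgst1 in place of Bex1) took 13357 CPM of the young and 13022 CPM of the aged sebaceous cells, against 164 and 290 CPM of the others.

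Bex1, a small gene of the BEX family on chromosome X (136213972 to 136215513, GRCm38.p6), counted towards the rule almost entirely in aged cells. It had 113 UMIs in 29 of 37 aged sebaceous cells, with a median of 2 and a highest of 11 UMIs, and 1 UMI in 1 of 30 young ones. Over all kept cells, sebaceous or not, it had 138 UMIs in 48 aged cells and 1 UMI in 1 young cell, a ratio of UMI shares of 213 (exact 95% interval 37.5 to 8457). The young cell that held it had no Mgst1 UMI and the lowest share of the 22 outside-rule genes among the young sebaceous cells, 1046 CPM. Near-empty barcodes gave 8 Bex1 UMIs in the aged and 0 in the young library.

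The direction held without its own selection. Chosen by the other 5 rule genes, 22 aged cells remained, of which 14 held Bex1 (63.6%, exact 95% interval 40.7 to 82.8), and 29 young cells, of which 0 did, which allows a share of up to 11.9% by the same interval. The summed level was 881 CPM in the aged cells and 0 UMIs in the young ones, at least 64.5-fold higher against a floor of 3 UMIs over the young group. Of the other aged cells outside that choice, 34 of 4329 held a UMI. The 15 aged cells that met the rule only through Bex1 all held Mgst1 as well. Without Bex1 in the rule the order of the ages turned, with 0.506% of aged and 0.717% of young cells. Its relative Bex2 had 1 UMI in the sebaceous cells of each library, too few to compare. Ngfrap1, another gene of the family, had 14 UMIs in the young and 13 in the aged sebaceous cells, and the related Wbp5 is given below.

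**Figure D2:**
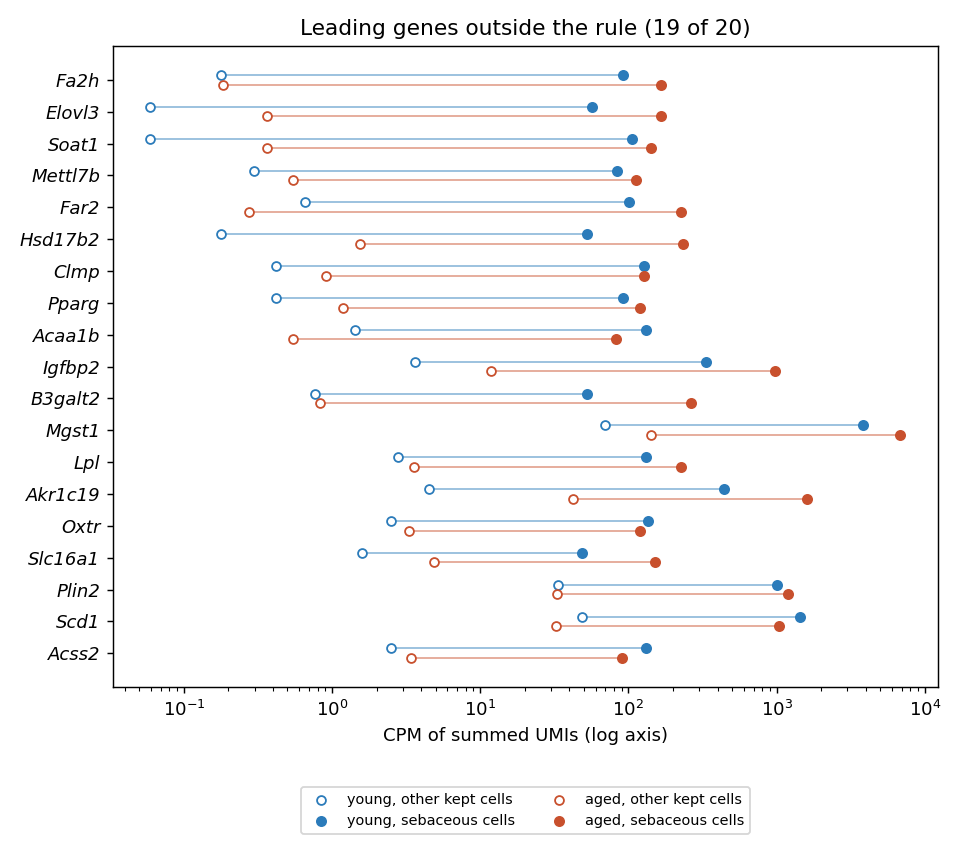
CPM of summed UMIs (x axis, log scale) of 19 of the 20 leading genes outside the rule (y axis, in rank order) in sebaceous cells (filled) and other kept cells (open) of the young and aged 10x libraries. In each gene both filled points lie to the right of both open ones, by 26.6-fold or more within a library.

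The leading genes of the sebaceous cells were ranked by the lower of the 2 libraries' ratios of UMI share to all other cells. Many were genes of lipid making, storage and steroid handling, while others, such as Igfbp2, Oxtr and B3galt2, have other roles. Of 1627 genes with 10 or more UMIs in the sebaceous cells of each library, 94 (5.78%) were 5-fold or more higher in both libraries, 89 of them outside the rule. The median gene stood at a ratio of 1.10 in the young and 1.20 in the aged library. Since the rule chose the cells, these ratios describe them and were not tested.

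The genes at the head of the ranking were nearly absent elsewhere. Fa2h, which hydroxylates fatty acids, had 21 UMIs in young and 22 in aged sebaceous cells and 3 and 2 UMIs in all other cells, ratios of 518 and 903. Elovl3, an elongase for very long fatty acids, had 13 and 22 UMIs against 1 and 4, with ratios of 963 and 451. Soat1, which esterifies cholesterol, had 24 and 19 UMIs, with ratios of 1777 and 390. With 1 to 4 UMIs outside, the intervals of these ratios were wide, from 290 to 73077 for Soat1 in the young library. Far2, which reduces fatty acyl-CoA to the alcohols of wax esters, had 23 UMIs in the young and 30 in the aged sebaceous cells against 11 and 3, with ratios of 155 and 821. Mettl7b (ratios of 281 young and 205 aged) ranked just before Far2. Hsd17b2 (296 and 150), Clmp (307 and 140), Pparg (222 and 101) and Acaa1b (92.6 and 150) came after it.

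Among the leading genes that are abundant, Mgst1 was 54.8-fold (interval 50.1 to 59.9) and 48.3-fold (44.4 to 52.4) higher than in other cells. Plin2, the coat of lipid droplets, was 29.9-fold and 35.8-fold higher, at 1008 and 1186 CPM. Scd1, the desaturase that makes oleate, was 29.2-fold and 32.0-fold higher, at 1431 and 1043 CPM. Igfbp2, an IGF-binding protein, was 92.3-fold and 82.1-fold higher, at 335 and 968 CPM. The oxytocin receptor Oxtr was 54.7-fold and 36.5-fold higher and was seen in 17 of 30 young and 13 of 37 aged cells. Lpl, Akr1c19, Slc16a1, B3galt2 and Acss2 were also among the 20.

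By role, 12 of 16 measured genes of fatty acid synthesis, elongation and desaturation passed 5-fold in both libraries. The 4 others (Acly, Acsl4, Hacd2 and Tecr) were higher than in other cells in both. The 12 include Elovl6, a rule gene, whose passing follows from the choice of cells. Of all measured genes 5.78% passed, the share to set beside this and the following lists. Besides those named, Fabp5, a fatty acid carrier, stood at 1242 and 1771 CPM with ratios of 9.92 and 17.3. Fasn, Me1, Slc25a1, Acsl5, Hsd17b12, Hacd3 and Acsbg1 also passed. None of the UMIs came from Fads1, Fads2, Fads3 or Fads6, the desaturase family of polyunsaturated fatty acids, in any of the 67 cells. The median ratio over the 16 was 6.45 in the young and 9.16 in the aged library.

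For neutral lipid esters and lipid droplets, 7 of 10 measured genes passed (Dgat2, Far2, Soat1, Plin2, Cidea, Fitm2 and Ces1d), with median ratios of 19.2 and 23.9. Cidea and Ces1d are rule genes, so their passing follows from the choice of cells. Dgat2, the last step to triglyceride, had ratios of 8.48 and 11.9. Awat2, a wax ester synthase, had 11 and 7 UMIs and so missed the minimum, with 7 and 2 UMIs in all other cells. Cidec, Cideb, Plin4 and Plin5, other droplet proteins, had no UMI. All 3 measured genes that did not pass (Agpat2, Bscl2 and Mgll) were higher in both libraries.

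Cholesterol genes split. All 12 measured were higher in both libraries, with median ratios of 4.41 and 7.24, but 5 passed 5-fold, Acat2, Idi1 and Msmo1 among them. Apoe, the lipid carrier protein, was the most counted gene of the list, at 30954 and 40343 CPM, yet only 2.62-fold and 2.83-fold above other cells. Apoc1 stood 3.58-fold and 3.57-fold above them.

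Of the steroid and retinoid genes, 4 of 5 measured passed: Akr1c18 (a rule gene), Sdr16c5, Sdr16c6 and Hsd17b4. Sdr16c6, a retinol dehydrogenase family member, had ratios of 23.5 and 68.7. Of 31 genes on that list in the matrices, 14 had no UMI in the cells. Hsd3b6, a hydroxysteroid dehydrogenase, had 5 and 9 UMIs against 2 and 5 in all others.

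Receptors and transcription factors known for the gland were detected at low counts. Pparg stood at 92.5 and 120 CPM, with ratios of 222 and 101, and was seen in 17 of 30 young and 15 of 37 aged cells. Cebpb (6.82 and 8.29) and Srebf1 (9.49 and 7.56) also passed 5-fold in both. Cebpa had ratios of 4.24 and 5.90, just short in the young library. Sox9 and Rxra lay between 1.20 and 2.00 in both. The melanocortin receptor Mc5r, known in the gland, had no UMI.

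Other groups differed less. In the peroxisome list 3 of 9 measured genes passed (Cat, Acaa1b and Hsd17b4) and all 9 were higher in both libraries. In the glutathione and redox list 2 of 17 passed, Mgst1 and Gclm, with median ratios of 1.44 and 1.75. Of ceramide genes, Cers4, a rule gene, passed and Degs1 did not, and no other gene of that list was counted enough in both libraries. The lysosome and DNA breakdown list had 0 of 9 past 5-fold and median ratios of 1.07 and 0.857. The interferon list had 0 of 3 and ratios of 2.11 and 1.74 at the median. MHC class I genes were lower, with 0 of 5 higher in both libraries: B2m was at 2936 and 1516 CPM against 3562 and 3187 CPM, and H2-K1 at 757 and 323 CPM against 1491 and 1031 CPM. The integrin and basal adhesion list had 0 of 3 higher, and the immediate early list 0 of 4.

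The sebaceous cells varied among themselves from cells rich in basal keratins to cells rich in lipid genes. Within each library they were ranked by their share of the 22 outside-rule genes, and the lowest 10 young and 12 aged cells were set against as many of the highest. In the young library the low group ended at 9031 CPM of these genes and the high group began at 17363 CPM, and in the aged library the bounds were 12825 and 21397 CPM. The groups had similar depth, with medians of 7202 and 8016 UMIs in the young and 3182 and 3675 in the aged library. The median cell held 3 rule genes in both low groups, 5 in the young and 4 in the aged high group. The lowest cells, at 1046 CPM young and 1666 CPM aged, lay below the 1634 and 2293 CPM of the other kept cells. The low groups thus include cells at the edge of the rule. Of 1101 genes outside the list with 10 or more UMIs over the 2 groups in each library, 89 (8.08%) were higher in the high group with an interval above 1 in both libraries, and 61 (5.54%) were lower. This too describes chosen cells and carries no test.

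Elovl6, Cers4 and Cidea are rule genes, so their levels helped to choose the cells. In the high group Elovl6 was 15.1-fold higher in the young (2516 against 167 CPM) and 44.7-fold in the aged library (1095 against 24.5 CPM). Cers4 was 11.9-fold and 7.86-fold higher, Cidea 6.97-fold and 14.1-fold, and Fabp5 6.78-fold and 5.94-fold. Enzymes of the sterol path went the same way: Fdps (9.09 and 10.5), Idi1 (10.7 and 10.8), Fdft1 (8.11 and 6.62) and Msmo1 (5.35 and 4.76). So did Tecr, the last step of each elongation round (3.04 and 2.51), the phospholipid enzyme Lpcat3 (11.3 and 11.2) and Sdr16c6 (7.00 and 10.3). Fa2h had 20 UMIs in the high group of each library and 1 and 0 in the low group. Cdkn1a, the cell cycle inhibitor p21, had 21 and 10 UMIs in the high groups and 4 and 0 in the low ones.

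The low group held more of the basal and proliferation transcripts. Krt5 was at 1010 CPM in the low and 135 CPM in the high group of the young library, and at 1838 and 162 CPM in the aged one. Krt15 stood at 2386 against 454 CPM and 2941 against 527 CPM, and Krt14, which was never absent, at 5449 against 2872 CPM and 5931 against 2859 CPM. Ly6d (high over low 0.0275 and 0.151), S100a6 (0.259 and 0.130), Ptn (0.0553 in the young, 18 UMIs to 0 in the aged) and the chemokine Ccl27a (0.106 and 0.118) were lower as well. Hmgb2 (0.0532 and 0.181), Tubb5 (0.0809 and 0.180), H2afz (0.266 and 0.276) and Ccnd2 (0.178 and 0.0637), which are high in dividing cells, went with them and were named after their values were seen. The list of 8 proliferation markers had 33 UMIs in the low and 5 in the high group of the young library. The high over low ratio was 0.168 (interval 0.0511 to 0.432). In the aged library the list had 14 and 0 UMIs. Of the 37 aged sebaceous cells 35 held no UMI of the list, so its aged counts rest on no more than 2 cells. Without the young cell of most UMIs, which is in the low group, the young counts were 17 and 5 (0.248, 0.0716 to 0.701). That cell held 223 of the 491 Krt14 and 118 of the 178 Ccl27a UMIs of the young low group. Without it the interfollicular basal list had a young ratio of 0.460 (0.393 to 0.536), against 0.336 with it and 0.336 in the aged library. Of the 8 proliferation markers, Mki67 had 3 and 2 UMIs in the young and none in the aged groups. Top2a had 6 and 1 and then 2 and 0. The intervals held 1.

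Some genes of the gland did not follow this ranking. Akr1c18 stood at 6670 and 7511 CPM in the low and high groups of the young library, and at 3553 and 3549 CPM in the aged one. Igfbp2 (ratio 0.713 and 0.674), Oxtr (0.553 and 1.38) and Pparg (1.55 and 1.16) had intervals that held 1 in both libraries. Pparg is itself on the list that ranks the cells, so its ratio is partly set by the ranking. Bex1 was 2.00-fold higher in the high group of the aged library (interval 1.11 to 3.75). Krt79, a keratin of the follicle and gland ducts, was 9.10-fold higher in the aged high group but 0.495 of the low group in the young library, where 1 cell of the low group, described next, held most of it.

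**Figure D3:**
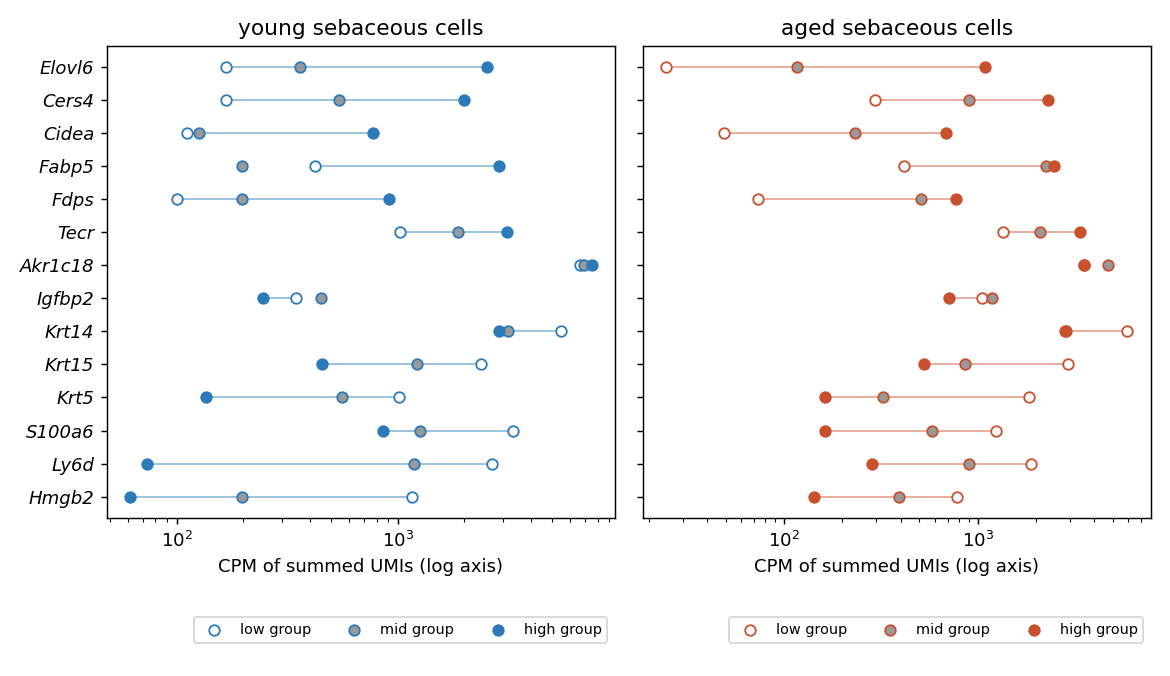
CPM of summed UMIs (x axis, log scale) in sebaceous cells ranked within each library by their share of 22 sebaceous genes outside the rule: low and high groups of 10 young or 12 aged cells, with the cells between them as the mid group. Elovl6, Cers4, Cidea (all rule genes) and sterol enzymes were higher in the high group and basal keratins in the low group of both libraries. Akr1c18 differed by 1.13-fold or less between the low and high groups. The young mid group of Fabp5 (198 CPM) lay below its low group (422 CPM).

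One young sebaceous cell stood apart. It held 21345 UMIs, more than 99.98% of the kept young cells. It held 638 of the 653 Cst6, 566 of the 604 Defb6, 275 of the 456 Krt79, 121 of the 146 Krt17 and 7 of the 8 Gata6 UMIs of the 30 cells, which are genes of the upper hair follicle and junction, as well as 46 of 48 Alox12e and all 36 Sprr1a UMIs. It held 13 of 1599 Akr1c18 and 11 of 864 Mgst1 UMIs. Whether this barcode holds more than 1 cell was not tested, and no doublet caller was run. Age values are given with and without it.

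Between the ages, few genes had a counting interval that lay wholly past 2-fold in the sebaceous cells. Genes with a ratio past 2-fold but a wider interval, such as Elovl3 (2.89) and Elovl6 (0.426), are not among those counted. Of 1439 genes with 30 or more UMIs over both ages, the ratio of UMI shares (aged over young) had its whole interval above 2 for 13 (0.903%) and below 1/2 for 15 (1.04%). The median gene had a ratio of 1.02. Without the young cell of 21345 UMIs, 9 (0.663%) and 7 (0.516%) of 1357 genes passed, all of them among the first sets.

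Among sebaceous genes, the age ratios were within 2-fold for Cidea (0.980, interval 0.667 to 1.43), Plin2 (1.18, 0.954 to 1.45), Scd1 (0.729, 0.593 to 0.892), Cers4 (1.36, 1.10 to 1.68) and Mgst1 (1.79, 1.63 to 1.97). Akr1c18 was lower in the aged cells, at 0.559 (0.505 to 0.617), and Elovl6 at 0.426 (0.316 to 0.568), both with intervals that did not lie wholly past 2-fold. Several of these depended on which cells were kept. At 5% mitochondrial UMIs or less, which left 8 cells per library, Mgst1 had a ratio of 3.06 (2.47 to 3.79), wholly past 2-fold, Cers4 stood at 3.09 (1.95 to 4.93), Plin2 at 1.93 and Cidea at 1.84. Scd1 (2.57, 1.67 to 3.97) and Elovl6 (1.12, 0.633 to 1.94) were then above 1. Without cells above the 98th percentile of UMIs Elovl6 was at 0.282 (0.191 to 0.406), wholly past 2-fold, Scd1 at 0.481 (0.370 to 0.618) and Cidea at 0.647. Without Bex1 in the rule, which 15 aged and 1 young cell needed to meet it, Elovl6 was at 0.631 (0.467 to 0.840). Mgst1 was then at 2.015 (1.82 to 2.23), Cers4 at 1.74, Cidea at 1.41, Plin2 at 1.27, Scd1 at 0.951 and Akr1c18 at 0.4745. The rule uses Elovl6, Cers4, Cidea and Akr1c18, so their levels helped to decide which cells were sebaceous. Over all kept cells the age ratio of Elovl6 was 0.515 (0.424 to 0.621). Akr1c18 went from 71.6 to 131 CPM in other cells, and over all kept cells its age ratio was 1.07 (1.01 to 1.14). Of the fatty acid list 0 of 15 measured genes passed in either direction, of the cholesterol list 0 of 12, of the neutral lipid list 0 of 8 and of the receptor list 0 of 6. With 0.903% and 1.04% of all genes past 2-fold, these counts do not set the lists apart from other genes.

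Higher in the aged cells, after Bex1, were Wbp5, Oat, Akr1c19, Acadm, Akr1c13, B3galt2, Ifitm2, Tmem97 and Hsd17b2. Wbp5, a TCEAL family gene related to the BEX genes, stood at 132 and 751 CPM, a ratio of 5.68 (3.75 to 8.86), and was seen in 16 of 30 young and 33 of 37 aged cells. Oat, ornithine aminotransferase, stood at 286 and 1223 CPM (4.28, 3.19 to 5.79). Acadm, a mitochondrial enzyme of medium-chain fatty acid oxidation, stood at 150 and 593 CPM (3.96, 2.62 to 6.11). Tmem97, the sigma-2 receptor with a role in sterol transport, had a ratio of 4.21 (2.25 to 8.25) and B3galt2, a galactosyltransferase, one of 4.97 (2.52 to 10.5). Ifitm2, an interferon-induced membrane protein, had a ratio of 3.02 (2.44 to 3.76) and was found in 29 of 30 and 37 of 37 cells.

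These genes split by what the other cells did. Wbp5 (1.02), Oat (1.03), Acadm (1.08), Tmem97 (0.970), B3galt2 (1.07) and Ifitm2 (0.892) had age ratios near 1 in the other cells. The aldo-keto reductases Akr1c19 and Akr1c13, with ratios of 3.65 and 5.49 in sebaceous cells, had ratios of 9.29 and 5.62 in the other cells. Igfbp2 stood at 2.89 in sebaceous and 3.25 in other cells. Without the young cell of most UMIs Hsd17b2, Igfbp2 and Ermp1 had intervals reaching just under 2 (lower bounds 1.99, 1.96 and 1.98), and 9 of the 13 genes kept theirs above. Acadm kept its interval above 2 and moved by less than 1.5-fold under all 9 alternatives that change the cells. Wbp5 had a ratio of 2.30 (1.08 to 4.91) at 5% mitochondrial UMIs or less, of 3.01 with 2 or more rule genes and of 9.42 with 4 or more. At 5% mitochondrial UMIs or less Oat was at 7.85 and Akr1c19 at 15.9 (7.83 to 36.3), while Akr1c13, B3galt2 and Tmem97 had 1 young UMI each against 10, 10 and 11 aged ones. With 2 or more rule genes Akr1c19 was at 5.67 and Akr1c13 at 10.5. Ifitm2 had an interval reaching under 2 with 2 or more rule genes (2.18, 1.88 to 2.53), and B3galt2 (4.47, 1.76 to 12.7) and Akr1c19 (2.61, 1.86 to 3.67) with 4 or more. Tmem97 did so with 2 or more (3.20, 1.90 to 5.49), with 4 or more (3.28, 1.64 to 6.83) and without cells above the 98th percentile of UMIs (3.06, 1.52 to 6.49). Hsd17b2 did so under 5 of the 9, with its lowest ratio, 2.17, at 4 or more rule genes, and Igfbp2 under 4, with its lowest, 2.25 (1.59 to 3.16), without Bex1 in the rule. The AKR1C enzymes are close copies, and the labels do not say how reads that fit several of them were counted.

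Lower in the aged cells with and without that young cell were Mt1, Mt2, Fos, Sostdc1, Defb6, S100a6 and Cst3. The metallothioneins Mt1 and Mt2, which bind zinc and copper, stood at 1470 and 1074 CPM in young and 405 and 240 CPM in aged cells, ratios of 0.276 (0.203 to 0.368) and 0.224 (0.150 to 0.324). In the other cells both stayed near 1, at 1.06 and 0.892. The median young cell had 9 Mt1 UMIs and the median aged cell 1. S100a6 (0.326) and Cst3 (0.396) were likewise lower, with ratios of 1.17 and 0.982 in other cells. With 2 or more rule genes they no longer passed, at 0.621 (0.556 to 0.693) and 0.616 (0.535 to 0.708). S100a6 also missed with 4 or more (0.398, 0.257 to 0.598), and Cst3 at 5% mitochondrial UMIs or less (0.378, 0.232 to 0.590) and without cells above the 98th percentile (0.447, 0.355 to 0.559). Mt1 and Mt2 passed under all 9 alternatives that change the cells, at 0.206 to 0.361 and 0.150 to 0.280. Fos, an immediate early gene that rises on cell handling, had a ratio of 0.156 (0.0730 to 0.299) and Sostdc1, a BMP and WNT inhibitor, one of 0.142 (0.0372 to 0.388). Fos passed under all 9 as well (0.0750 to 0.209), while Sostdc1 missed with 4 or more rule genes (0.184, 0.00424 to 1.29) and at 5% mitochondrial UMIs or less (0.153, 0.00364 to 0.997). Both were lower in the other cells too, at 0.504 and 0.425. In bulk RNA, given below, most genes of the immediate early list, which includes Fos, were higher in aged HFSC and aged EpdSC. Near-empty barcodes, a measure of free RNA, held Mt1 at 1633 and 1710 CPM and Mt2 at 1958 and 1710 CPM (young, then aged), but Fos at 1166 and 572 CPM, Sostdc1 at 797 and 379 CPM and Defb6 at 2464 and 599 CPM. The part of free RNA in these differences was not tested. Mt2 (0.226 young and 0.0662 aged) and S100a6 were also lower in the high than in the low group of the ranking above. Tmem97, higher in the aged cells, was higher in the high groups (15.5 and 5.59), while Igfbp2 and B3galt2 had intervals that held 1. By the list that ranks the cells, the median aged sebaceous cell stood at 17436 CPM and the median young one at 11155 CPM. The part of this difference in the age ratios was not tested.

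Cst6, Alox12e, Sprr1a, Krt79, Krt17, Ccl27a, Dbi and Jun passed below 1/2 only with the young cell included. Defb6 had a ratio of 0.00565 with that cell and 0.0813 (0.00950 to 0.315) without it. Krt79 had a ratio of 0.280 with it and 0.640 (0.482 to 0.842) without it, and Cst6 0.00783 with it and 0.309 (0.0573 to 1.09) without it. Alox12e and Sprr1a had no UMI in aged cells and 2 and 0 UMIs in the remaining young ones. MHC class I genes were also lower in aged sebaceous cells without passing 2-fold, with B2m at 0.516 (0.439 to 0.605), H2-D1 at 0.518 and H2-K1 at 0.426 (0.298 to 0.598). Over the 5 measured genes of that list the median ratio was 0.516 in sebaceous cells and 0.705 in other cells. Bulk HFSC went the other way, as given below.

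**Figure D4:**
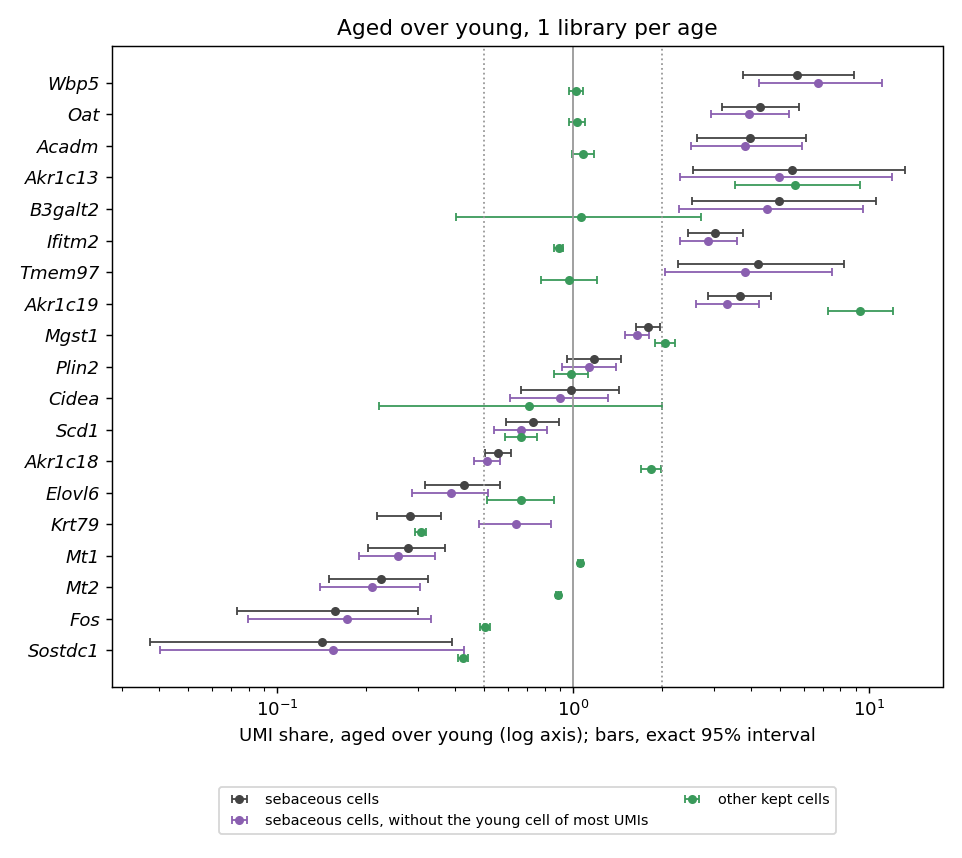
Ratio of UMI share, aged over young (x axis, log scale, exact 95% intervals of counting error), for 19 genes (y axis) in sebaceous cells, in the same without the young cell of most UMIs, and in other kept cells. Wbp5, Oat, Acadm, Ifitm2 and Tmem97 lay above 2 in sebaceous cells and near 1 in other cells, Mt1 and Mt2 below 1/2 and near 1, and Krt79 moved from 0.280 to 0.640 without that cell.

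Bulk RNA from the sorted stem cells was not used by the rule, so the sebaceous genes could be tested there (edgeR quasi-likelihood test on 8 libraries of 25126808 to 35905505 counts, Benjamini-Hochberg over 21464 genes). All 20 leading genes were higher in aged than in young HFSC in the fit, as were 51.9% of all genes, with a median log2 change of 1.91, against 0.02 over all genes tested. Of the 20, 2 passed an adjusted p of 0.05, Far2 among them, where 0.294% of all genes were called higher and 0.0745% lower. The unadjusted p was under 0.05 for 14, and for 7.68% of all genes. In EpdSC 16 of the 20 were higher, as were 50% of all genes, with a median log2 change of 0.66 against 0.00, and 0 passed, where 0.0559% of genes were called higher and 0.028% lower (6 had an unadjusted p under 0.05, as did 4.46% of all genes). DESeq2 called 10 of the 20 higher in HFSC, where it called 1.35% of all genes higher and 0.457% lower. In EpdSC it called 1, Mgst1, where it called 0.284% of all genes higher and 0.112% lower. In bulk RNA, fewer cells of a type and less RNA per cell cannot be told apart.

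Far2 stood at 17.7 and 29.6 CPM (TMM-scaled here and below) in the 2 aged HFSC libraries and at 6.43 and 5.23 CPM in the young ones, a log2 change of 2.02 ± 0.311 (SE; edgeR adjusted p = 0.0264). Both aged libraries lay above both young ones. Far2 did not pass without aged HFSC replicate 2 (edgeR adjusted p = 0.192), without young replicate 2 (0.0658) or in a fit of the 4 HFSC libraries (0.0704).

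Scd1, at 201 and 246 CPM against 74.2 and 97.95 CPM, missed the threshold (log2 change 1.38 ± 0.259, edgeR adjusted p = 0.0524). Igfbp2 (log2 change 2.76, adjusted p = 0.0750) and Elovl6 (0.81, 0.0925) were near it, and Mgst1 (1.01, 0.160), Pparg (2.10, 0.304) and Plin2 (0.55, 0.734) were not called by edgeR. In aged HFSC both libraries lay above both young ones for 18 of the 20, all except B3galt2 and Plin2, where 18% of all genes did. In EpdSC the aged libraries lay above the young ones for 6 of the 20, where 17.1% of all genes did, below them for B3galt2, and overlapped with them for 13. Fa2h was among the 6, at 0.804 and 1.30 CPM against 0.0588 and 0.494 CPM, and Far2 among the 13, at 3.90 and 5.63 CPM against 3.09 and 4.08 CPM.

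The rule genes followed the same pattern. All 6 were higher in aged HFSC (median log2 change 2.12) and in aged EpdSC (1.16), as were 51.9% and 50% of all genes. None was called by edgeR, which called 0.294% and 0.0559% of all genes higher. The unadjusted edgeR p was under 0.05 for 6 in HFSC and 3 in EpdSC, and for 7.68% and 4.46% of all genes. DESeq2 called Cidea and Elovl6 in HFSC and none in EpdSC, where it called 1.35% and 0.284% of all genes higher. Cidea stood at 4.26 and 5.10 CPM in aged against 0.533 and 0.393 CPM in young HFSC (log2 change 3.32 ± 0.710, edgeR adjusted p = 0.0927). Akr1c18 stood at 30.4 and 50.6 against 8.19 and 6.77 CPM in HFSC, and at 3.96 and 22.4 against 0.412 and 2.50 CPM in EpdSC, with edgeR adjusted p of 0.248 and 0.386. Its direction in the bulk was thus opposite to that among the 10x sebaceous cells and the same as among the other 10x cells.

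Bex1 had 11 and 79 reads in the aged and 2 and 0 in the young HFSC libraries. In EpdSC it had 0 and 7 against 0 and 0. The aged HFSC libraries lay above the young ones, and the fitted difference was not called (log2 change 5.25 ± 1.79, edgeR adjusted p = 0.393). The direction was that of the 10x cells.

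**Figure D5:**
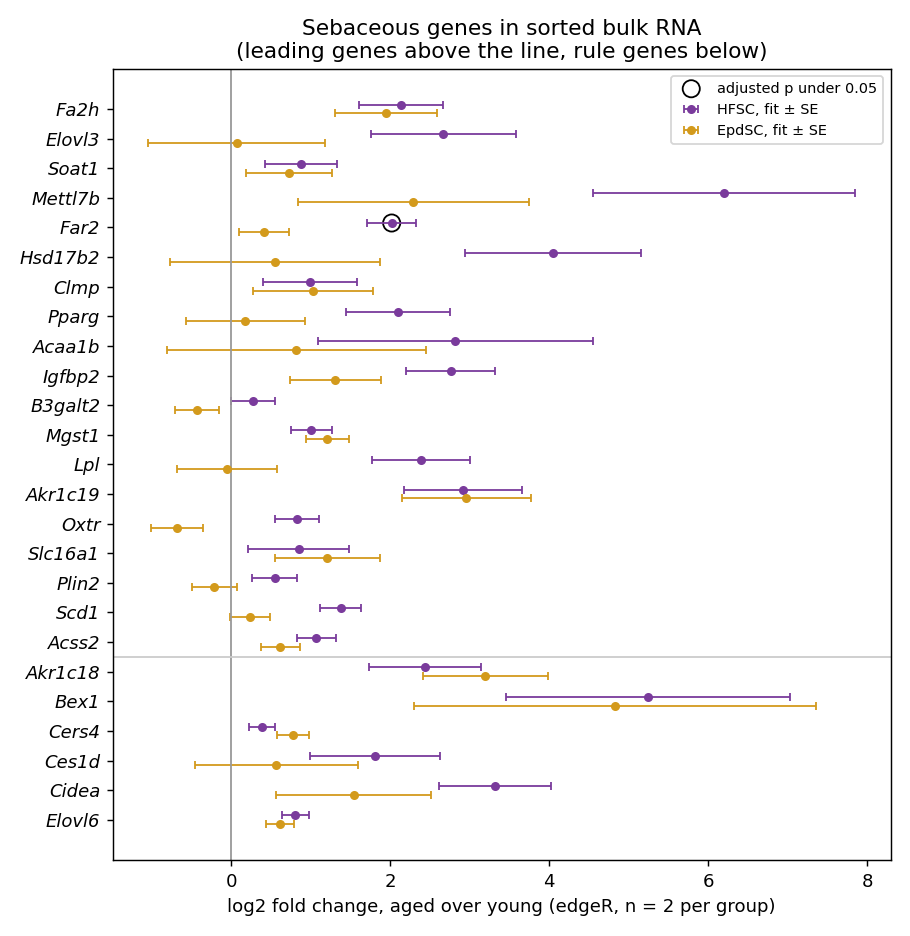
Fitted log2 change, aged over young (x axis, edgeR, bars are SE, 2 libraries per group), of 19 of the 20 leading genes and, below the line, the 6 rule genes (y axis) in HFSC and EpdSC bulk RNA. All 25 HFSC points shown lie above 0, 1 of them with an adjusted p under 0.05 (Far2, ringed), and 21 of 25 EpdSC points do.

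Among genes that differed with age in the 10x cells, Akr1c13 was called in aged HFSC (log2 change 3.34 ± 0.555, edgeR adjusted p = 0.0343), while Wbp5 (-0.09), Ifitm2 (0.29) and Acadm (0.21) were not (edgeR adjusted p = 0.996, 0.927 and 0.900). Mt1 and Mt2 lay below in both aged HFSC libraries (log2 change -0.71 and -0.57) and were not called (edgeR adjusted p = 0.345 and 0.612). On the pathway lists, 16 of 26 cholesterol genes had an unadjusted p under 0.05 in HFSC, 23 were higher and 1 was called, where 7.68% of all genes had such a p, 51.9% were higher and 0.294% were called higher. Of 29 tested fatty acid genes 26 were higher and 1 (Fads1) was called, of 28 neutral lipid genes 22 and 1 (Far2), and of 27 steroid and retinoid genes 20 and 2 (Akr1c13 and Sdr16c6, log2 change 2.75 ± 0.446, edgeR adjusted p = 0.0318). Their median log2 changes were 0.73, 0.50, 0.28 and 0.38. The MHC class I list was higher in 15 of 15 genes in aged HFSC (median log2 change 1.18), with 3 called higher. The immediate early list, which includes Fos, was higher in 17 of 20 (0.59), with 1 called higher. In aged EpdSC 11 of 15 (0.10) and 20 of 20 (0.59) were higher, and 0 and 1 called higher. Of all genes there 50% were higher and 0.0559% called higher. The HFSC direction of both lists was opposite to that of their medians in 10x sebaceous cells. For the immediate early list that median was 0.337 over 6 genes, and 0.639 over 5 without the young cell of most UMIs. In the other 10x cells it was 0.599, so the lower value was not particular to sebaceous cells.

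The change in HFSC was not shown to differ from that in EpdSC. For the interaction 0 of the 26 leading and rule genes were called by edgeR or by DESeq2, and 5 had an unadjusted p under 0.05, as did 4.57% of all genes (Far2 with a log2 difference of 1.61 ± 0.438, adjusted p = 0.556), where edgeR called 0.00466% of all genes with a higher change in HFSC and DESeq2 0.298% with a higher and 0.14% with a lower one. Some lists of other cell types were also higher in aged HFSC, where 51.9% of all genes were higher. The upper hair follicle list was higher in 5 of 5 genes (median log2 change 1.71) and the suprabasal list in 7 of 8 (1.43). An unadjusted p under 0.05 by edgeR was found for 3 and 7 genes of these lists, and for 7.68% of all genes in HFSC. The myeloid list was higher in 5 of 5 tested (1.19), the T cell list in 4 of 5 (1.09) and the melanocyte list in 5 of 6 (0.82), while the adipocyte list was higher in 2 of 4 tested (0.81) and the bulge list in 2 of 7 (-0.13). Smaller changes were found in the follicle junction list, 4 of 4 higher (0.41), and the interfollicular basal list, 4 of 6 (0.36). The fibroblast list was higher in 3 of 5 tested (0.19), the endothelial list in 1 of 2 (0.19) and the proliferation list in 1 of 8 (-0.45). Their part in the result was not tested.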

How the data were processed

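The authors deposited 10x matrices of raw UMI counts, with near-empty barcodes included, and bulk tables of raw read counts per gene. Per the submitters' processing notes, STAR, Bowtie and Cell Ranger were used with mm10, with no role or version given. The ATAC files were not used here. Members and gene lists were chosen with earlier results of these data known.

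In the 10x data, counts were summed over cells per library. Ratios of summed shares have exact conditional binomial 95% intervals, tested on simulated data, and shares have Clopper-Pearson intervals (scipy 1.17.1). Members, other cells and ages were compared without a test. Named genes were the rule and label genes, 20 leading genes (10 or more UMIs in each library, no predicted genes or pseudogenes), up to 6 members per list by level, and up to 10 genes each way past 2-fold with age (30 or more UMIs). Other genes, those of the ranking among sebaceous cells, Bex2, Ngfrap1 and Esr1 included, were chosen after their values were seen. The 27 lists hold 14 of cell types and 13 of pathways.

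Bulk counts were fitted with edgeR 4.0.16 (R 4.3.3; TMM, filterByExpr, a term per group), with DESeq2 1.42.0 as an alternative. SE is the log2 change divided by the square root of the F statistic. Gene positions are RefSeq GRCm38.p6. Some genes are counted in the totals and not reported here by name.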

Additional observations from a re-analysis of the deposited data

Results flagged for a closer look

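Akr1c18 had opposite age differences in the 2 kinds of 10x cells. Its UMI share was lower in the aged sebaceous cells, with a ratio of 0.559 (exact 95% interval 0.505 to 0.617), and higher in the other aged cells, with a ratio of 1.83 (1.69 to 1.98). It is listed because the only library of each age moved one way in sebaceous cells and the other way in the rest. Akr1c18 is one of the rule genes, so its level helped to decide which cells fell on either side, and over all kept cells its ratio was 1.07 (1.01 to 1.14). The difference between the 2 ratios was not tested, and near-empty barcodes held 178 CPM in the young and 195 CPM in the aged library.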

How the results depend on the processing

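The share of cells depended on the rule. With 2 or more rule genes it was 1.98% young and 1.91% aged, with 4 or more 0.371% and 0.345%, at 5% mitochondrial UMIs or less 0.254% and 0.315% (8 cells each), and thinned to 1000 UMIs 0.346% and 0.414%. The aged share was 1.28% at 2000 UMIs or more and 0.506% without Bex1. At 5% mitochondrial UMIs 28 of 477 genes led 5-fold. Age counts were 6 higher and 8 lower with 4 or more rule genes, 8 lower without cells above the 98th percentile, 7 lower without the young cell of most UMIs, and 23 higher at 10 or more UMIs. Leaving out that cell, requiring a Mgst1 UMI and dropping the mitochondrial limit were chosen after seeing the data. Of 427 alternative values (leading genes' ratios to other cells, and age ratios of named genes past 2-fold), 364 moved by less than their interval and none turned direction. Age ratios of the 21 leading, rule and marker genes not past 2-fold were less firm: over 9 alternatives, 21 of 189 values, from 12 genes, lay on the other side of 1.

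In bulk, DESeq2 called 289 higher and 98 lower genes in HFSC, 61 and 24 in EpdSC, and 64 and 30 for the interaction, and it called 10 more of the 26 sebaceous genes in HFSC and Mgst1 in EpdSC. With no filter the counts were 470 and 192, 159 and 80, and 200 and 85. At 1 CPM, 9 genes were lower in HFSC and 7 higher and 3 lower in EpdSC. Library sizes alone gave 3 lower in EpdSC. Fits of the 4 libraries compared gave 7 and 2 in HFSC and 3 and 0 in EpdSC. Leaving out 1 library at a time gave 10 to 137 higher and 2 to 44 lower in HFSC, 4 to 21 and 2 to 10 in EpdSC, and 0 to 49 and 0 to 14 for the interaction. The lowest HFSC counts came without aged HFSC replicate 2, and the lone library is then assumed to vary like the other groups.

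Correlations of same-numbered deviations ran from -0.213 to 0.174. They cannot decide whether replicate numbers pair the samples, and the main fit had no replicate term. With a replicate block HFSC counts were 123 and 37 (63 and 16 in the main fit) and interaction counts 2 and 1, and EpdSC counts 16 and 7. Depth limits the 10x comparison to genes of 30 or more UMIs in 67 cells.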

Other observations

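Esr1, the estrogen receptor α gene, had 3 UMIs in 3 of 30 young and 14 UMIs in the 37 aged sebaceous cells, below the 30 UMIs set for the age comparison. The levels were 13.2 and 105 CPM, against 1.96 and 4.85 CPM in other cells. In bulk RNA Esr1 was called higher in aged HFSC (log2 change 2.42 ± 0.357, edgeR adjusted p = 0.0218) and not in EpdSC (log2 change 0.33, edgeR adjusted p = 1). It was singled out after its values were seen.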
